A study of Drosophila melanogaster with 3 samples.

Results

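The 5 genes described here, mtSSB, PolG1, PolG2, TFAM and PolrMT, encode the proteins that copy, package and transcribe mitochondrial DNA in Drosophila melanogaster, and they are 5 of the 13968 protein-coding genes with a start site on the chromosome arms. They were named as genes of mitochondrial DNA maintenance, mtSSB being the strongest nuclear peak of the conservative list, and the peaks, ranks and sequence matches below were looked up for them by name. All of these values are therefore given as a description, with no test. Binding was mapped by ChIP-seq, in which chromatin is precipitated with an antibody and its DNA sequenced, here with an antibody against GFP in flies that carry CG34224-eGFP, the CG34224 protein joined to a green fluorescent tag, from an insertion targeting CG34224. All 3 libraries came from whole embryos 0 to 24 hours old, carry biological replicate numbers 1, 2 and 3, and form 1 group of 1 strain, so there is no comparison between conditions. Every embryonic tissue and stage is mixed in a library, and binding in few cells cannot be told apart from weak binding in many. Chromatin was sheared to 200 to 800 bp. The control that the labels point to is not analysed here.

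A peak was assigned to a gene when its summit, the base of highest signal, lay within 500 bp of the gene's start site; this is called a promoter peak below. The deposited peak lists are of 2 kinds. Ranked lists hold candidate peaks with a score of up to 1000, scaled by the irreproducible discovery rate (IDR), a measure of how reproducible a peak is, and no thresholded list held a peak scoring below 830. The thresholded lists held 2667, 2844 and 4146 peaks in replicates 1, 2 and 3. A conservative list made by the authors from the 3 libraries together held 4395, and the ranked list that contains all of its peaks is called the joint ranked list below. The lists give no read counts, and the depth behind a peak is unknown. The authors' signal has no stated unit, and it is compared only within a list. Replicate 2 stood apart in 1 respect: its lists alone held summits on the mitochondrial genome, 3 in number with signals of up to 8326, which were left out of the ranks below.

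The mitochondrial genome is copied by its own polymerase, polymerase gamma, whose catalytic subunit is PolG1 and whose accessory subunit is PolG2. The single-stranded DNA-binding protein mtSSB covers the exposed strand during copying, TFAM coats and compacts the DNA, and PolrMT is the RNA polymerase that reads it. All of these proteins are made from nuclear genes and imported into the organelle. In Drosophila the factor DREF binds the DNA replication-related element (DRE), TATCGATA, and is known as a regulator of genes for DNA replication, including some that act on mitochondrial DNA.

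The bases upstream of PolG2 and TFAM are shown because they hold partial matches to the DRE. Each stretch is read on the gene's own strand, which is the minus strand, and ends at the last base before the start site. It reaches upstream to the first exon of the next gene. Capitals mark runs of at least 6 consecutive DRE bases. The sequences come from the RefSeq Release 6 assembly, the build of the peak coordinates (dm6), and lie at chr2L:13833106-13833336 for PolG2 and chr3R:20577011-20577052 for TFAM.
PolG2: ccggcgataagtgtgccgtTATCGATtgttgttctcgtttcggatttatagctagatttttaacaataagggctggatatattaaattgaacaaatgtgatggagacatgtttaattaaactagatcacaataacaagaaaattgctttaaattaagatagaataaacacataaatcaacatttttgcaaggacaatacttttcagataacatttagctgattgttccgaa
TFAM: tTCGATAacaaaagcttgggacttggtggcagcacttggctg

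No full DRE was found within 500 bp of the start site of any of the 5 genes, on either strand. PolG2 held the 7-base run TATCGAT between -212 and -206 relative to the start site, near the start of its divergent neighbour Polr2C. TFAM held the 6-base run TCGATA from -41 to -36, between its own start and that of CG5412. PolrMT had no such run within 500 bp of its start, and the runs at PolG1 lay 370 to 379 bp downstream of the start, inside the gene. For comparison, a full DRE was found in 9.36% of all 13968 protein-coding promoters, taken from 250 bp upstream to 50 bp downstream of the start, and in 25.6% of those with a conservative promoter peak. A partial DRE, at least 6 consecutive bases without the full element, was found in 22.4% and 33.9% of the same promoters. A match is a description of the letters and does not show that a factor binds there.

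In the conservative list 2 of the 5 genes had a promoter peak, mtSSB and PolG2, beside 29.7% of all protein-coding genes. The thresholded lists held a promoter peak at 2, 3 and 3 of the 5 in replicates 1, 2 and 3, against 21.1%, 22.3% and 28.6% of all protein-coding genes. The peaks of mtSSB and PolG2 were in all 3 of these lists. PolrMT was added in replicate 2 and PolG1 in replicate 3, while TFAM was in none. In the ranked lists all 5 genes had a promoter peak in every replicate, but these lists also held one at 61.6%, 59.6% and 69.8% of all protein-coding genes. The 3 remaining thresholded series lists, called a, b and c by falling length, held one at 3, 2 and 2 of the 5, beside 32.4%, 28.8% and 26.4% of all protein-coding genes, and PolG1 was the gene added in list a. All 5 had one in the ranked series lists too, beside 65.2% of all protein-coding genes in the joint ranked list and 65.2%, 67.9% and 63.0% in those that contain lists a, b and c. The mtSSB and PolG2 peaks had the same signals in lists a, b and c as in the conservative list. The series lists are therefore not independent of each other, and which replicates stand behind each is not given. mtSSB and PolG2 were again the 2 genes listed when the distance was set to 250 or 1000 bp (26.8% and 32.4% of all protein-coding genes), in the stronger 50% of conservative peaks (19.7%) and among conservative peaks overlapped in all 3 replicates (17.2%). With 5 genes, 1 gene is a step of 20 percentage points, so a count of 2 is not set apart from these shares.

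**Figure D1:**
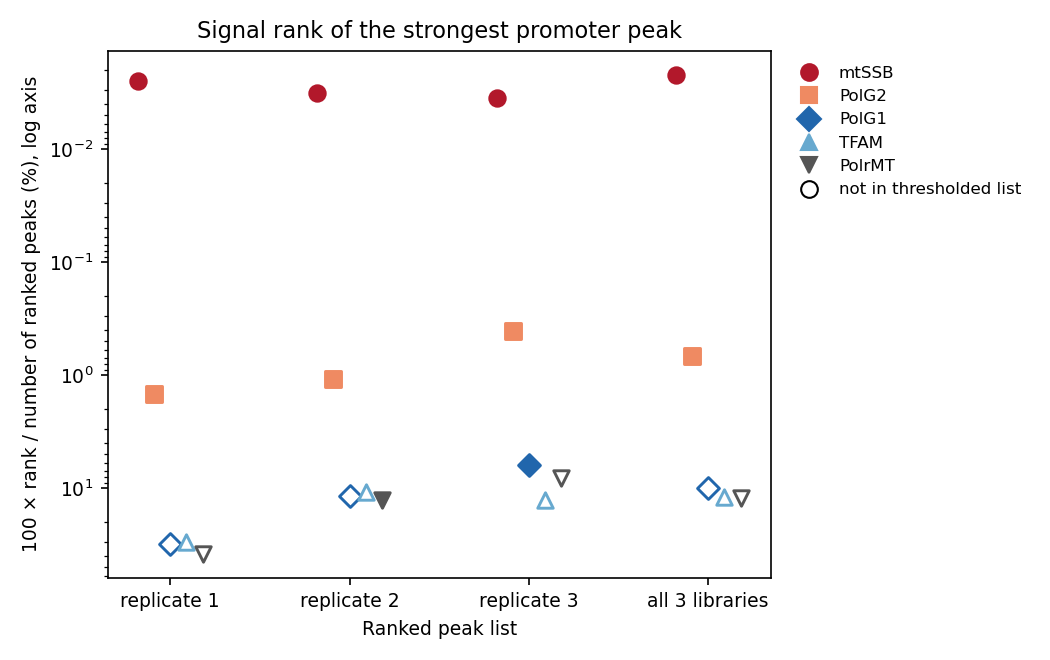
Rank of the strongest promoter peak of each gene as a percent of the ranked list (log axis, strongest at the top), for the 3 replicates and for the joint ranked list. Filled symbols are peaks kept in the matching thresholded list and open symbols are not; mtSSB and PolG2 are filled throughout, and the other 3 genes lie close together in each list.

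mtSSB had the highest signal of the nuclear genome in replicates 1 and 2 and the second highest in replicate 3. Its signals in replicates 1, 2 and 3 were 612, 707 and 963, which is 6.84, 8.29 and 8.20 times the median of the same thresholded list, or 7.78 ± 0.811 times on average (SD, n = 3). In the conservative list the peak lay at chr3R:16205084-16205543 with a signal of 2322, against a median of 297 for the strongest promoter peaks of the 4153 bound protein-coding genes. The gene (FBgn0010438) runs on the minus strand from 16204194 to 16205250 on chromosome 3R and has 1 annotated start site.

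The mtSSB summits fell at -48, -47 and -41 bp in replicates 1, 2 and 3, a spread of 7 bp, and at -56 bp in the conservative list. All of these positions are outside annotated genes, and no other gene starts within 500 bp of the conservative summit. The peak was 369, 415 and 387 bp wide in the 3 replicates, beside list medians of 410, 440 and 470 bp. The candidate peaks of PolG1, TFAM and PolrMT had exactly these median widths. In replicate 1, 410 bp was also the largest width, so the median there is a width that many peaks share.

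PolG2 came second among the 5 genes in every list. Its signal was 146, 180 and 347 in replicates 1, 2 and 3, or 1.64, 2.11 and 2.96 times the list medians, with ranks of 565, 325 and 218. The PolG2 summit signal was thus above the median of each list, and far below that of mtSSB. In the conservative list the PolG2 peak lay at chr2L:13833080-13833401 with a signal of 685 and a rank of 294. Among the bound protein-coding genes it was number 404 by signal, since genes that share a peak share its signal.

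The PolG2 peak lies in a promoter shared by 3 genes. PolG2 (FBgn0004407, chromosome 2L, 13831482 to 13833105, minus strand) has the same start site as GatC, which encodes a subunit of the amidotransferase that makes glutaminyl-tRNA in mitochondria. Polr2C, a subunit of the nuclear RNA polymerase II, starts in the opposite direction, with 231 bp between the start sites. The summits lay 180, 158 and 170 bp upstream of the PolG2 start in the 3 replicates and 141 bp upstream in the conservative list. The conservative summit was 91 bp from the Polr2C start, closer than to the start of PolG2 and GatC. The peak therefore cannot be assigned to one of the 3 genes.

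**Figure D2:**
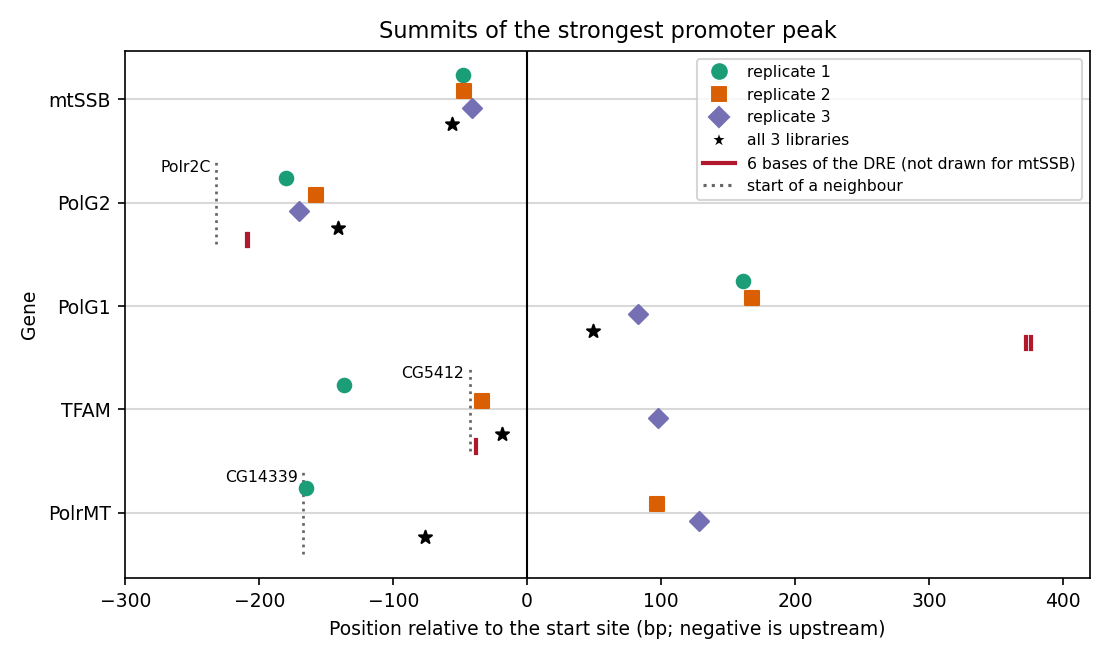
Position in bp of the strongest promoter summit relative to each gene's start site in the 3 replicates and the joint ranked list, with red ticks for runs of at least 6 DRE bases at PolG2, PolG1 and TFAM (not drawn for mtSSB) and dotted lines for the starts of neighbouring genes. The summits of mtSSB stay within 7 bp over the replicates, while those of TFAM and PolrMT fall on both sides of the start.

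PolG1, the catalytic partner of PolG2, had a much lower rank. In the ranked lists its strongest promoter peak had a signal of 26.7, 42.6 and 86.8 in replicates 1, 2 and 3 and ranks of 12406, 3687 and 3545. Its score was 83, 823 and 857, so the peak of replicate 3 was just inside the floor of 830 and that of replicate 2 just outside it. The summits lay 161, 168 and 83 bp downstream of the start, in an exon of PolG1. A weaker candidate in replicate 2, with a signal of 11.8 and a score of 68, lay 32 bp upstream. Candidates beyond the promoter distance lay 582 bp upstream in replicates 1 and 2 and 659 bp upstream in replicate 3. Their signals were 18.5, 13.4 and 33.3. In the joint ranked list the PolG1 peak had a signal of 141 and a score of 68, while the ranked list that contains list a gave the same peak a score of 951.

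PolG1 and PolG2 lie near each other on chromosome 2L, on the same strand, with 5333 bp between their start sites. The conservative list held a peak between them at 2L 13829655 to 13829936, at the starts of Arpc1 and Orc5, with a signal of 672, a rank of 319 and a full DRE at its summit. This site and its genes were named after their values were seen. Its summit was 2012 bp from the PolG1 start. Both conservative peaks, this one and that of PolG2, lay upstream of PolG1, and the list held none within 500 bp of the PolG1 start.

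TFAM had no promoter peak in any thresholded list. The signal of its strongest candidate was 27.2, 45.4 and 57.2 in replicates 1, 2 and 3, with ranks of 11862, 3409 and 7206 and scores of 51, 703 and 689. The strongest summits fell 137 bp upstream, 34 bp upstream and 98 bp downstream of the start, a spread of 235 bp. A weaker candidate in replicate 3, with a signal of 36.9 and a score of 59, lay 112 bp upstream, close to the summit of replicate 1. TFAM (FBgn0038805, chromosome 3R, 20575245 to 20577010, minus strand) and CG5412 start in opposite directions with 42 bp between them, and the summit of replicate 1 lay in an exon of CG5412. The strongest candidates of the 3 replicates were thus not at one position. In the joint ranked list the summit lay 19 bp upstream of the TFAM start and 24 bp upstream of the CG5412 start. These candidates therefore cannot be assigned to TFAM alone.

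PolrMT, the mitochondrial RNA polymerase gene (FBgn0261938, chromosome 2L, 1103254 to 1108373, minus strand), had promoter signals of 24.5, 40.2 and 73.5 in replicates 1, 2 and 3, with ranks of 15206, 4005 and 4610. It was kept in the list of replicate 2 with a score of 890, while PolG1 and TFAM had higher signals in that replicate, 42.6 and 45.4, and were left out. A second summit in the same list, 164 bp upstream of the PolrMT start with a signal of 27.4, had the same score of 890. The strongest summits lay 165 bp upstream, 97 bp downstream and 128 bp downstream of the start in replicates 1, 2 and 3. Weaker candidates of replicate 3 lay 96 and 482 bp upstream, with signals of 38.2 and 16.9 and a score of 30 each. The divergent neighbour CG14339 starts at 1108540, with 166 bp between it and PolrMT. The strongest summit of replicate 1, at 1108538, and the second summit of replicate 2, at 1108537, lay beside the CG14339 start. These summits therefore cannot be assigned to PolrMT alone. A thresholded list is cut by the reproducibility score, so listing follows it for every gene. In replicate 2 the order of the scores of PolrMT, PolG1 and TFAM was not that of their signals.

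On the percentile scale of the ranked lists, where 100 is the strongest peak, mtSSB stood at the top or next to it in every replicate and PolG2 averaged 99.0 ± 0.537 (SD, n = 3). PolG1 averaged 83.7 ± 13.0, TFAM 82.3 ± 10.4 and PolrMT 80.4 ± 16.1 (SD, n = 3 each). The order of these last 3 genes differs by less than their spread, and it changed between replicates. Each of the 3 had its lowest percentile in replicate 1, with 69.0 for PolG1, 70.4 for TFAM and 62.1 for PolrMT. For 2891 protein-coding genes with a promoter peak in all 3 ranked lists but not in the conservative one, the median percentiles were 78.7, 74.95 and 85.5 in replicates 1, 2 and 3. Of these genes, 32.9% had their lowest percentile in replicate 1. For the 4090 genes that were also in the conservative list, as mtSSB and PolG2 were, the medians were higher, at 95.9, 94.9 and 97.2. Of those, 34.2% had their lowest percentile in replicate 1.

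In the window reaching 50 bp to either side of the mtSSB summit, a partial DRE was present and no full one. Of the 4393 conservative windows, 14.2% held a full DRE and 19.9% a partial DRE. At the PolG2 summit in the conservative list the window held neither a full nor a partial DRE, since its run of 7 bases lay beyond 50 bp, while the windows of replicates 1 and 3 reached it. The windows of the joint ranked list held a partial DRE at TFAM and none at PolG1 or PolrMT. At TFAM the window of replicate 2 held a partial DRE too, while those of replicates 1 and 3 held none.

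Other promoter letters were searched in the same way. The core of Motif 1, GGTCACACT, and the GAGA repeat, GAGAGAG, were absent from the 5 promoters of 250 bp upstream to 50 bp downstream, where they occur in 6.04% and 5.86% of all protein-coding promoters. The E-box core CAGCTG was present in the promoters of TFAM and PolrMT, at -197 and -21, beside 17.6% of all promoters. CACGTG was present at PolrMT, at +29, beside 4.20%. The letters CGATA, which overlap the DRE and are known as the site of the insulator protein BEAF-32, were present in the promoters of mtSSB, PolG2 and TFAM, beside 47.3% of all promoters and 72.5% of those with a conservative promoter peak. The letters TATAAA were found in the promoters of mtSSB, PolG1, PolG2 and TFAM, beside 45.8% of all promoters. The initiator letters TCAGT were found at PolG1 and PolG2, beside 51.5%. Each set of letters was searched on both strands, and the absence of one says only that these letters are not in this stretch.

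The wider machinery of mitochondrial DNA and RNA was described with 30 further genes, of which 20 (66.7%) were bound, meaning a promoter peak in the conservative list, beside 29.7% of all protein-coding genes. These genes were chosen by role with earlier results of these data known. Whether their promoter peaks are shared with neighbouring genes was not examined. The counts were 13, 15 and 21 in the lists of replicates 1, 2 and 3, a share of 54.4% ± 13.9, beside 24.0% ± 4.07 of all protein-coding genes (SD, n = 3). All 20 were in at least 1 replicate list and 12 were in all 3, counts that were not made for all bound protein-coding genes. By overlap of the conservative peaks in all 3 replicates, 12 of the 20 were kept, beside 2401 of the 4153 bound protein-coding genes. The median signal of these 20 peaks in the conservative list was 286, close to the median of 297 over all bound protein-coding genes, and far below mtSSB.

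**Figure D3:**
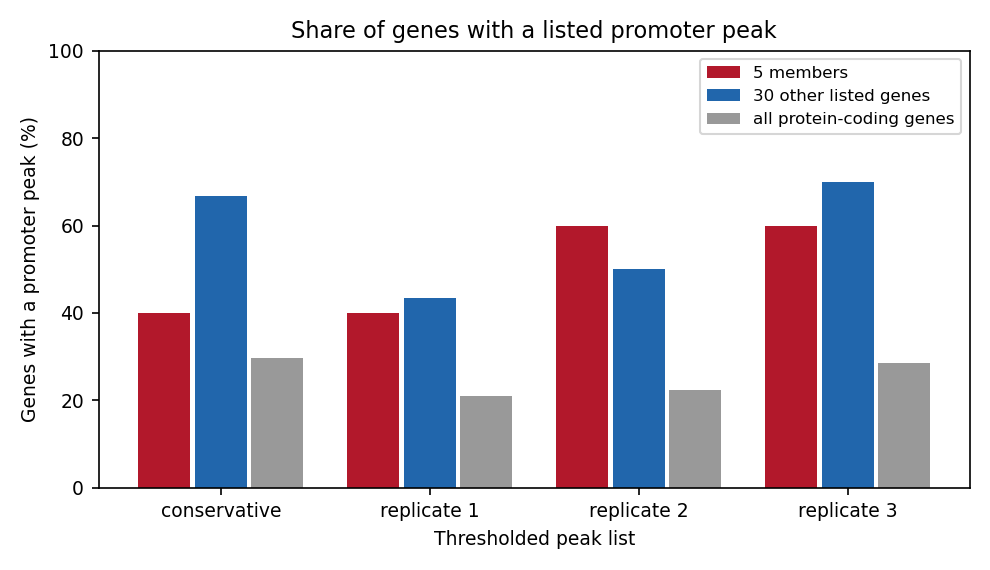
Percent of genes with a promoter peak in the conservative list and in the thresholded list of each replicate, for the 5 genes (red), the 30 further genes (blue) and all protein-coding genes (grey). The 5 genes lie between 40% and 60%, the 30 further genes between 43.3% and 70.0%, and all protein-coding genes between 21.1% and 29.7%; each member is a step of 20%.

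Among the replication genes, 3 of 5 were bound, beside 29.7% of all protein-coding genes. The roles hold few genes each, so their counts are given as a description. Top3alpha, a topoisomerase with a mitochondrial form, had a conservative signal of 408 and ranks of 1046, 987 and 783 in replicates 1, 2 and 3. The ligase gene DNAlig3 had a signal of 237 and was listed in all 3 replicates. mtDNA-helicase, the replicative helicase, had a signal of 224 with its summit 2 bp upstream of the start and a full DRE in the window, and it was listed in replicates 2 and 3. rnh1, which encodes RNase H1, and EndoG, a mitochondrial endonuclease, were in none of the 3 replicate lists or the conservative list, though rnh1 was in series lists a and b. Replication genes thus ranged from the top of the list at mtSSB to no conservative peak at PolG1, rnh1 and EndoG.

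Among the transcription genes 3 of 5 were bound as well, beside the same 29.7% of all protein-coding genes. mTerf5 had the highest signal, 578 at rank 497, with a full DRE at the summit. mtTFB2, the initiation partner of PolrMT, had a signal of 330 and ranks of 1052, 1332 and 1257 in replicates 1, 2 and 3, again with a full DRE. The termination factor gene mTTF had a signal of 195 and was listed in replicate 3 alone. mtTFB1, whose mammalian counterpart methylates the small ribosomal RNA of mitochondria, and mTerf3 were in none of the 3 replicate lists. PolrMT itself, with no conservative peak, differs here from its initiation factor mtTFB2, although the difference was not tested.

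Of 11 genes for processing and decay of mitochondrial RNA, 7 were bound, beside 29.7% of all protein-coding genes. That share also stands beside the counts of the roles that follow. The highest signals were at bsf, an LRPPRC homologue that binds mitochondrial RNA (599), SLIRP2 (345), the tRNA-processing gene RNaseZ (320) and MTPAP, the mitochondrial poly(A) polymerase (278). Among the 3 nucleotide supply genes, RnrS, the small subunit of ribonucleotide reductase, was bound with a signal of 295. Both genes of nucleoid upkeep were bound, bor with 324 and Lon, the protease that degrades TFAM, with 248. All 4 regulators were bound, beside 29.7% of all protein-coding genes. The signals were 685 at ewg, the NRF-1 orthologue, and 438 at Dref, the gene of DREF. They were 172 at Ets97D, the GABP-alpha orthologue, and 136 at srl, the PGC-1 orthologue. Of the 4, the lists of replicates 1, 2 and 3 held 2, 3 and 4, beside 21.1%, 22.3% and 28.6% of all protein-coding genes. Ets97D was listed in replicates 2 and 3, and srl in replicate 3 alone. A full DRE was at the summit of 4 of the 20 bound genes, a partial DRE at 3, and neither at 13. This is close to the shares over all 4393 conservative windows, 14.2% full, 19.9% partial and 65.9% neither. Those windows were not limited to promoter peaks, so the 2 sets are not matched.

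**Figure D4:**
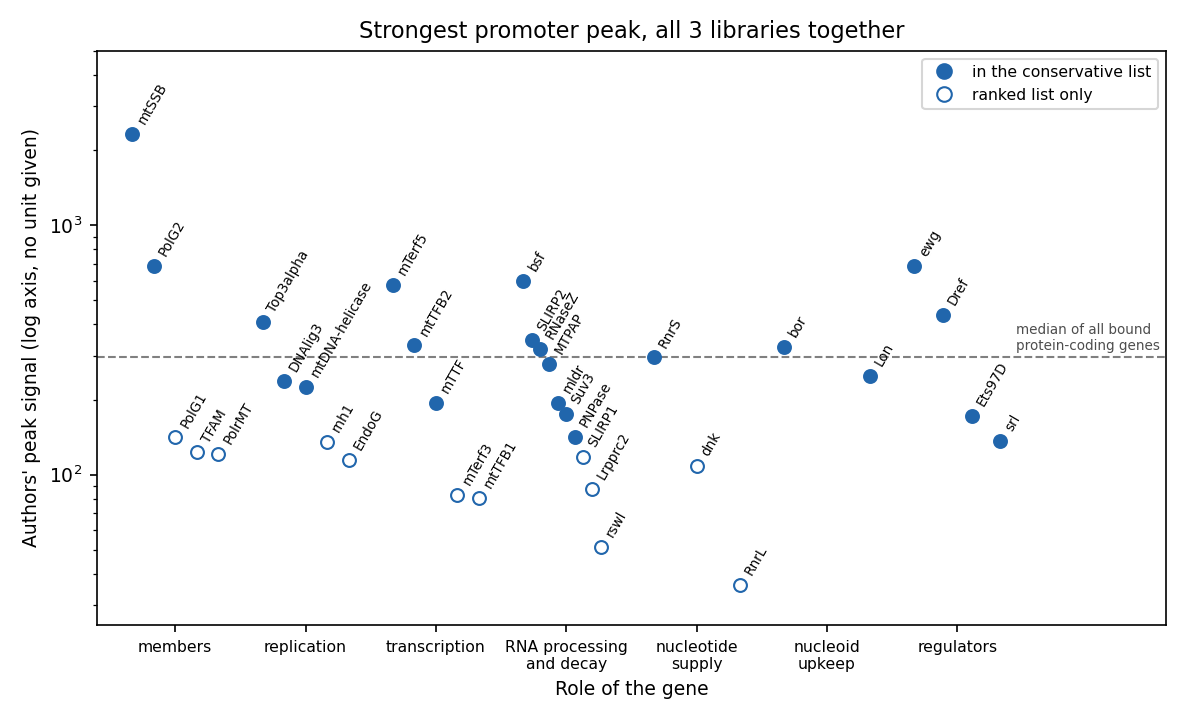
The authors' signal (log axis) of the strongest promoter peak in the joint ranked list for the 5 genes and for 29 of the 30 further genes, grouped by role; filled points are in the conservative list and the dashed line is the median of 297 over all bound protein-coding genes. mtSSB stands highest at 2322, PolG2 (685) and ewg (685) follow, and PolG1, TFAM and PolrMT lie between 121 and 141; scu had no promoter peak in the list and is not drawn.

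The genes most like mtSSB and PolG2 were sought by the distance between percentiles in the 3 ranked replicate lists, over 6981 protein-coding genes with a promoter peak in each. For mtSSB these were Creld, with ranks of 2, 2 and 1 in replicates 1, 2 and 3, and Rpn6, with 3, 3 and 4. For PolG2 they were Polr2C and GatC at a distance of 0, because they share its peak.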

How the data were processed

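Peak lists were analysed as the authors deposited them, on assembly dm6 per the labels. The authors' score is scaled by the irreproducible discovery rate (IDR), with at least 830 in every thresholded list. The authors' signal has no stated unit. The deposited −log10 q value served only as an alternative ranking. No aligner or peak caller is named in the sources used here. Summits were the deposited start plus the deposited offset. Ranks and percentiles by signal were taken within a list, leaving out unplaced sequences and the mitochondrial genome. Start sites came from Ensembl release 115, bases from RefSeq Release 6. The upstream bases of mtSSB are not reported here. Members and gene lists were chosen with earlier results of these data known. Genes named are the 5 members, their neighbours within 500 bp, all replication and transcription genes, up to 4 of highest signal elsewhere, and 2 nearest in pattern. Named outside this rule, after their values were seen, are Arpc1, Orc5, mt:CoI and scu. The matching and motif steps were tested on simulated data. Tools were Python 3.11.15, pandas 2.3.3 and numpy 2.4.6. No test was run: there is 1 group.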

Additional observations from a re-analysis of the deposited data

Results flagged for a closer look

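The list of replicate 2 held 3 summits on the mitochondrial genome itself, within 1 interval from 1309 to 3131, in data outside the nuclear peaks used above. Their signals were 8326, 4950 and 4906, and all 3 fell in mt:CoI, the gene of cytochrome c oxidase subunit I (1474 to 3009). The highest was 11.8 times the signal of mtSSB in that replicate, so mtSSB ranks 4 there when these summits are counted. The lists of replicates 1 and 3 and all 8 series lists held 0 peaks on the mitochondrial genome. The source of the signal was not tested.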

How the results depend on the processing

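mtSSB and PolG2 kept their promoter peaks with a distance of 250 or 1000 bp, in the stronger 50% of the conservative list, and among its peaks overlapped in all 3 replicates. Over the other thresholded lists 2 or 3 of the 5 genes were held, although the series lists are not independent of the conservative list. The 20 further genes became 13 in the upper 50% (19.7% of all protein-coding genes), 12 among peaks overlapped in all 3 replicates (17.2%) and 13 in replicate 1 (21.1%). The mean percentile of PolG2 was 87.4 in thresholded lists, 99.0 in ranked lists and 100 by −log10 q, where the top peaks tie. With 1 mismatch to the DRE allowed, the windows held 2 matches at mtSSB and 1 at TFAM. Leaving out 1 replicate turned the mean summit position of TFAM, -24.3 bp with all 3, to 32.0 without replicate 1, with -85.5 as the lowest value. For PolrMT the mean of 20.0 bp became 112.5 without replicate 1, with -34.0 as the lowest value. Without replicate 1 the mean percentiles of PolG1, TFAM and PolrMT were 91.0, 88.3 and 89.6. No read depth is known, so whether a missing peak reflects depth cannot be judged. No paired analysis was possible because there is 1 group.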
